A study of Mus musculus with 20 samples.

Results

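The genes described here are 10 whose proteins build the sarcomere, the contractile unit, of fast muscle fibres: Mylpf, Myl1 and Mybpc2 of the thick filament, Tnnt3, Tnni2, Tnnc2, Tpm1 and Acta1 of the thin filament, and Actn3 and Myoz1 of the Z-disc. They were taken by name, as the probes whose gene name in the scanner files equals 1 of these symbols. All 10 were on the array, with 17 of its 39429 probes and 10 of its 30397 gene names. All 17 probes passed the filter on dim signal, which asks for a spot well above background on at least 10 of 20 arrays and which 19206 probes passed.

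RNA came from the quadriceps, a thigh muscle, of 20 male C57BL/6J mice aged 6 weeks. The 10 mHFD mice were born to dams fed a high-fat diet, with 40% of energy from fat, 23% from protein and 37% from carbohydrate, and the 10 mLFD mice to dams fed a low-fat diet, with 10%, 23% and 67%. Dams were 8 weeks old, went onto the diet 3 days before mating and stayed on it through pregnancy and lactation, and after weaning all offspring of both groups were caged singly on the low-fat diet and were killed after 2 h without food. Each mouse's Cy5-labelled RNA was hybridised to an Agilent array against a Cy3-labelled pool of all samples. The value given is the log2 ratio of sample over pool after normalisation. An offset from 0 that all arrays share is not read as a level of RNA, since the pool holds all samples and no dye swap was made. Up to 4 littermates could stand in a group, and the labels do not say which arrays share a litter, so p-values treat all mice of a group as independent. In whole-muscle RNA, fewer fibres of a type and less RNA per fibre cannot be told apart.

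In a sarcomere, myosin heads of the thick filament pull on actin of the thin filament, and calcium released into the fibre starts the pull by binding troponin C, which moves troponin I, troponin T and tropomyosin off the sites that myosin needs. Fast and slow fibres build this machine from different genes for nearly every part, and the mouse quadriceps is known as a mostly fast muscle. Of the genes here, Acta1, skeletal actin, serves all skeletal fibres, and Tpm1, alpha-tropomyosin, is also known in heart and smooth muscle, so these 2 are less particular to fast fibres than the rest.

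Some of the sequences behind the values are shown because results below turn on them. Tnnt3, troponin T of fast fibres, was read by a pair of overlapping 60-base probes, with the 27 bases that they share in capitals. Probe 1 lies at chr7:149698500-149700262 of mouse build mm9 (NCBI 37), a stretch of 1763 bases that a 60-base probe can span only across an exon junction, and probe 2 at chr7:149698467-149698526. The probe of Acta1 lies at chr8:126416197-126416256 and is given because actin genes are known to have very similar coding sequences. The files give probe letters 5′ to 3′ without a strand, and no gene models of mm9 were used here, so exons and untranslated regions of the other probes are not named.
Tnnt3 probe 1: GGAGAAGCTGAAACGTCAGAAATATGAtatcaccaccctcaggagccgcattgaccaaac
Tnnt3 probe 2: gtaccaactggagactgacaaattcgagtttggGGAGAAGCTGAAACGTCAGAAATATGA
Acta1: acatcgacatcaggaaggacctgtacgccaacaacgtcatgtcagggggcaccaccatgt

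The promoters of Myl1 and Tpm1 are shown because these 2 genes had the most similar values over arrays. That of Acta1 is shown because, of the 6 promoters searched, it alone held a CArG box, the site of serum response factor. Each is the 250 bases before the gene's start in RefSeq (assembly GRCm38.p6), all on the minus strand, with matches to the motifs in capitals. They lie at chr1:66945057-66945306, chr9:67049214-67049463 and chr8:123894776-123895025.
Myl1: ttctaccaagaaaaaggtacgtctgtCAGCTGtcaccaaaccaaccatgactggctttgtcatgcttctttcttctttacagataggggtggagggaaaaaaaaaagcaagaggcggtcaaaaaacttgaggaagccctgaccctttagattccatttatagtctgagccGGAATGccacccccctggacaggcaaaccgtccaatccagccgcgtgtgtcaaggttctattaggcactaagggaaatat
Tpm1: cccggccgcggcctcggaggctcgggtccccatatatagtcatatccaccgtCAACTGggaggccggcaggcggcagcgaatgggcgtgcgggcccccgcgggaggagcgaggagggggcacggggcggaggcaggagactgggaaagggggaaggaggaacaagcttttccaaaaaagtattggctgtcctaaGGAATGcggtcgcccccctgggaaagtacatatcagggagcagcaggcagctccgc
Acta1: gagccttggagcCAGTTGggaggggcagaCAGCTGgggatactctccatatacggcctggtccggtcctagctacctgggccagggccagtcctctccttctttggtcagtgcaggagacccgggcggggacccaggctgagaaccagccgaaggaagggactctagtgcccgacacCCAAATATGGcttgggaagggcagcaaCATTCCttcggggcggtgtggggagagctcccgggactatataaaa

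The set of RefSeq promoters used here held 6 of the 10 genes, Mylpf, Myl1, Mybpc2, Tnnc2, Tpm1 and Acta1. The other genes were not in that set, so their promoters were not searched. On either strand, the E-box CANNTG, bound by myogenic factors such as MyoD, was found in 6 of 6, against 66.2% of 32851 promoters of the same length. The MCAT element CATTCC, bound by TEAD factors, was found in 4 of 6, against 12.6%. The CArG box was found in 1 of 6, against 1.5%, and the MEF2 box in 0 of 6, against 1.7%. No matches overlapped each other in these 6 promoters. These are matches of letters and no evidence of binding.

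None of the 17 probes was saturated. In either dye, 0 of the 20 arrays had a saturated spot or a saturated pixel at any of these probes, although the 12 bright ones gave some of the highest readings on the array. The mean Cy5 signal of the brightest probe of Tpm1 ranked 3 and that of Tnni2 ranked 4 among 19206 tested probes, as a property of the spots, since signals of different probes are not levels of RNA. The highest single Cy5 readings reached 57.1% of the lowest Cy5 saturation value for Tpm1, 54.0% for Tnni2 and 14.9% for Myoz1. The Cy5 saturation values were 637596 to 658693, in an extended-range extraction that joins a high-gain and a low-gain scan. The brightest probe of every gene but Mylpf was read from the low-gain scan, scaled up, on 20 of 20 arrays in both dyes, except Myoz1 with 18 of 20 in Cy5. Mylpf, with a median Cy5 signal of 2335, and 4 dimmer Tpm1 probes, with median signals from 79.4 to 262, were read from the high-gain scan throughout. The Mylpf probe starts at base 69 of its transcript and the brightest probes of the other 9 genes at bases 607 to 3322, per the file's start column.

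What the bright spots did lose was slide 2. The 20 arrays lay on 5 slides of 4, each with 2 arrays of either group, and on slide 2 the scanner software flagged bright spots as non-uniform, a flag that removes a spot here. Of the readings taken from the low-gain scan in both dyes, 599 of 698 (85.8%) were so flagged on slide 2, against 0 of 2035 on slide 1, 0 of 744 on slide 3, 4 of 1022 on slide 4 and 1 of 1690 on slide 5. All flags on these 17 probes fell on the 4 arrays of slide 2. The brightest probes of Myl1, Mybpc2, Tnni2, Tpm1, Acta1 and Myoz1 lost all 4 arrays and stand on 8 against 8, those of Tnnt3, Actn3 and Tnnc2 lost 2, 2 and 1, and Mylpf lost 0.

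The spread between arrays was not small. The SD of the log2 ratio within groups ran from 0.137 (Acta1) to 0.210 (Tpm1) over the brightest probes of the 10 genes, with a median of 0.185, against a median of 0.137 over all 19206 tested probes. Acta1 stood at the middle of all tested probes, at percentile 49.99, and Tpm1 at percentile 82.1. Spread was larger at higher signal, from a median SD of 0.108 in the dimmest 1920 tested probes to 0.168 in the brightest 1921. The Spearman correlation was 0.434 across 19206 probes, which share the same arrays. The offset of 50 added to both dyes draws the log2 ratios of dim probes toward 0 and so lowers their SD. Spread without the offset was not computed, so comparisons with dimmer probes and with all tested probes hold for this processing only. Among probes of like brightness, 181 other probes in the brightest 1% had a median SD of 0.202, and 115 others read at low gain in both dyes on 18 or more arrays had 0.209. Of the 9 bright genes, Tpm1, Tnnt3, Myl1 and Actn3 lay above the middle of the brightest 1%, at percentiles 51.3 to 60.1, and the other 5 below it. The slow or cardiac counterparts of the 10 genes had a median SD of 0.359, with Mybpc1 at 0.0904 and Tpm3 at 0.207 below their fast partners. At these spreads the 95% intervals of the 10 differences reached a median of 0.18 on the log2 scale to either side, against 0.13 for all tested probes.

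**Figure D1:**
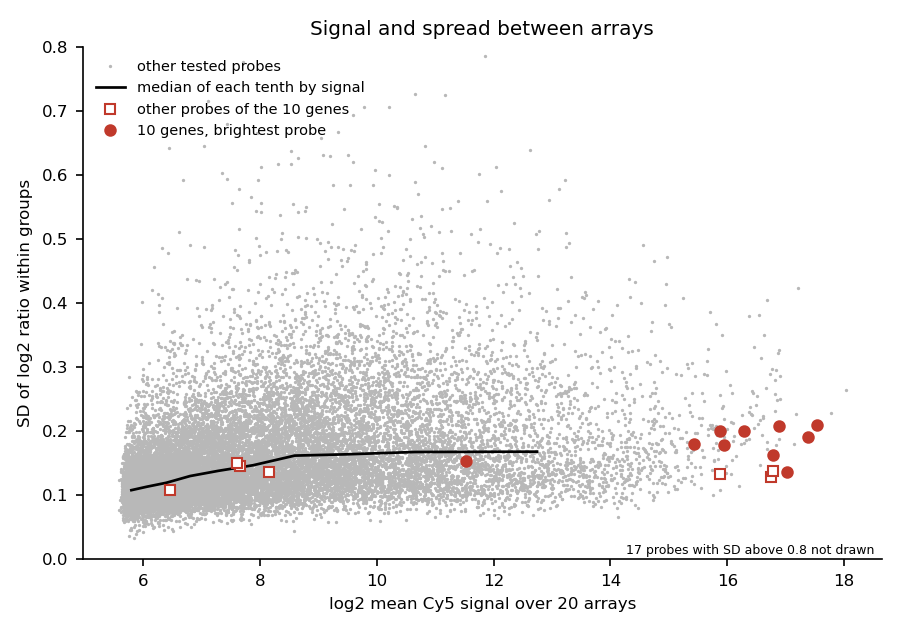
Spread within groups (SD of the log2 ratio, vertical axis) against log2 mean Cy5 signal over 20 arrays (horizontal axis), with 1 grey point per tested probe, the black line through the medians of 10 equal bins by signal, filled red circles for the brightest probe of each of the 10 genes and open squares for their other probes. The filled circles lie between 0.137 and 0.210, 9 of them at the far right, and Mylpf to their left at percentile 90.4 of signal.

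No gene of the 10 differed between the groups after adjustment. In limma with Benjamini-Hochberg adjustment over all tested probes, 0 of 10 genes passed an adjusted p of 0.05, with a smallest adjusted p of 0.690. Over the array 1 of 19206 probes passed (0.00521%), a probe of Bcl6, a transcriptional repressor, higher in mHFD by 0.51 (SE 0.0785; limma adjusted p = 0.0242), named here after its value was seen. At an unadjusted p of 0.05, 1 of the 10 genes passed, Mylpf, which was lower, beside 7.14% of all probes, of which 4.04% were higher and 3.1% lower. The point estimate was higher in mHFD for 7 genes and lower for 3, against 51.6% higher over all tested probes. The median difference was 0.020 on the log2 scale, against 0.0029 over all tested probes. Since all of the genes but Mylpf are bright, other bright probes are the closer background. Of 115 others read at low gain in both dyes, 63.5% were higher (median 0.034). Of 181 others in the brightest 1%, 58.6% were higher (median 0.018). The median of the 10 genes lay between these medians. With scaling between arrays the median of the 10 genes turned to -0.062, so the count of higher genes gives no direction for the group.

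**Figure D2:**
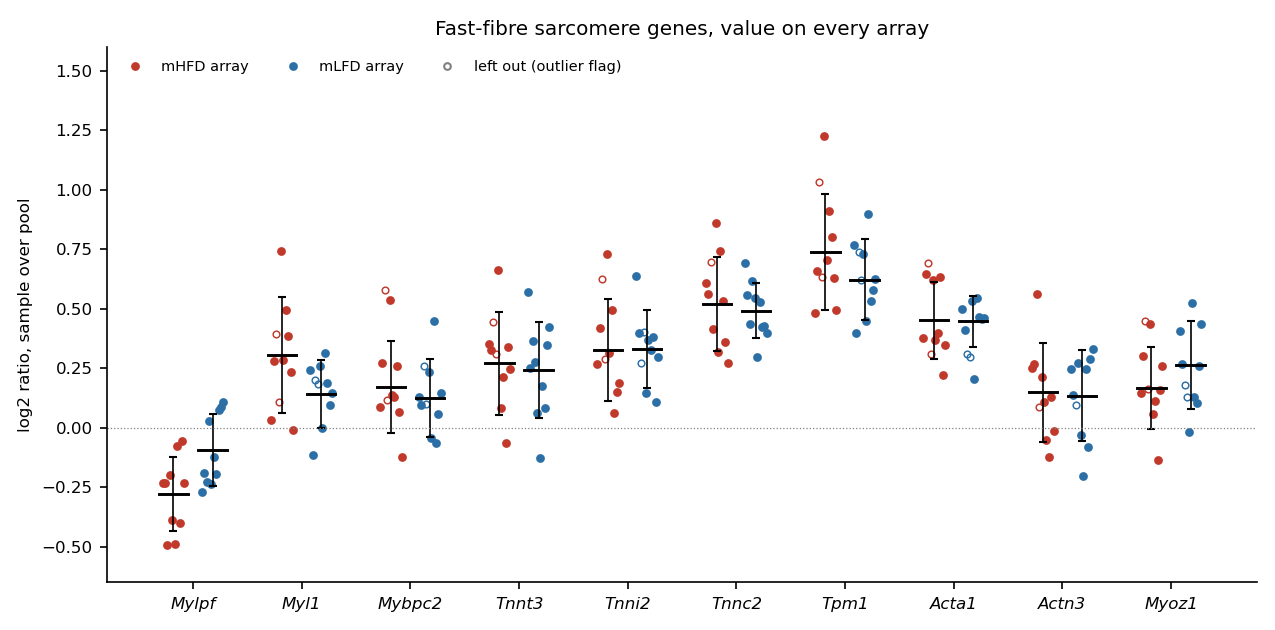
Log2 ratio of sample over pool (vertical axis) for the brightest probe of each gene, with 1 point per array, mHFD in red and mLFD in blue, horizontal bars for group means and error bars for 1 SD. Open points are spots with an outlier flag, left out of means and tests. The groups overlap in every gene, and mHFD array 5 is the highest point of Tpm1, at 1.22.

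Among the thick filament genes, Mylpf was lower in mHFD by the largest margin of the 10 without passing adjustment. Mylpf encodes the regulatory light chain of fast myosin, which takes a phosphate when a fibre is used repeatedly and so tunes its force. Its lowest, median and highest log2 ratios were -0.49, -0.23 and -0.054 in mHFD (n = 10) and -0.27, -0.16 and 0.11 in mLFD (n = 10). The groups overlapped, with 4 mHFD arrays below every mLFD array and 4 mLFD arrays above every mHFD array. The difference was -0.18 (SE 0.0670; 95% interval -0.32 to -0.045), 1.14-fold lower in mHFD (limma p = 0.0115, Benjamini-Hochberg adjusted p = 0.690). Within slides 2 to 5 it was -0.24, -0.26, -0.18 and -0.24, and within slide 1 it was -0.00066. The dyes taken apart gave smaller differences with opposite signs: -0.099 in Cy5 (SE 0.0886; limma p = 0.274, adjusted p = 0.812), which holds each mouse's RNA, and 0.063 in Cy3 (SE 0.0460; limma p = 0.182, adjusted p = 0.625), which holds the same pool on every array.

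Myl1 encodes the alkali light chains of fast myosin, made from alternative starts of the gene. Its brightest probe gave -0.011, 0.28 and 0.74 in mHFD (n = 8) and -0.11, 0.17 and 0.32 in mLFD (n = 8). The groups overlapped, with 3 mHFD arrays above every mLFD array and 1 mLFD array below every mHFD array. The difference was 0.16 (SE 0.0926; 95% interval -0.030 to 0.36) (limma p = 0.0923, Benjamini-Hochberg adjusted p = 0.711). It was 0.10 without mHFD array 5 (limma p = 0.220, adjusted p = 0.787) and 0.091 without slide 3, and it reached an unadjusted p under 0.05 without mHFD array 1 (0.20, limma p = 0.0400, adjusted p = 0.768) or array 10 (0.21, limma p = 0.0310, adjusted p = 0.613). The other probe, matched to another transcript of the gene, gave 0.083 (SE 0.0668; limma p = 0.228, adjusted p = 0.777).

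Mybpc2, fast myosin-binding protein C, links myosin rods and tunes cross-bridge cycling. It gave -0.12, 0.13 and 0.54 in mHFD (n = 8) and -0.065, 0.11 and 0.45 in mLFD (n = 8), ranges that lie almost on each other. The difference was 0.046 (SE 0.0842; 95% interval -0.13 to 0.22) (limma p = 0.589, Benjamini-Hochberg adjusted p = 0.910).

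The troponin subunits of fast fibres gave no direction that held over the settings tried. Their differences lay between -0.0042 and 0.028 on the log2 scale, and with 1 array left out they reached 0.075 for Tnnt3 (without mHFD array 8), -0.062 for Tnni2 (without mHFD array 5) and 0.058 for Tnnc2 (without mHFD array 10). On Cy5 alone they were -0.11, 0.14 and -0.13. Tnnt3, which ties the troponin complex to tropomyosin, gave -0.065, 0.29 and 0.66 in mHFD (n = 8) and -0.13, 0.26 and 0.57 in mLFD (n = 10). Its groups overlapped over nearly their whole range, and the difference was 0.028 (SE 0.0915; 95% interval -0.16 to 0.22) (limma p = 0.767, Benjamini-Hochberg adjusted p = 0.953). Probe 2, shown above, gave 0.020 (SE 0.0646).

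Tnni2, the inhibitory subunit, gave 0.062, 0.29 and 0.73 in mHFD (n = 8) and 0.11, 0.35 and 0.64 in mLFD (n = 8). The difference was -0.0042 (SE 0.0892; 95% interval -0.19 to 0.18) (limma p = 0.963, Benjamini-Hochberg adjusted p = 0.993). Tnnc2, the calcium sensor, gave 0.27, 0.53 and 0.86 in mHFD (n = 9) and 0.30, 0.48 and 0.69 in mLFD (n = 10). Its difference was 0.027 (SE 0.0712; 95% interval -0.12 to 0.17) (limma p = 0.713, Benjamini-Hochberg adjusted p = 0.941). For both genes all arrays with a value had a log2 ratio above 0 and the groups overlapped, with 1 and 2 mHFD arrays above every mLFD array.

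Tpm1 and Acta1 make the thin filament itself. The brightest probe of Tpm1 gave 0.48, 0.68 and 1.22 in mHFD (n = 8) and 0.40, 0.60 and 0.90 in mLFD (n = 8). The groups overlapped, with 2 mHFD arrays above every mLFD array and 2 mLFD arrays below every mHFD array. The difference was 0.12 (SE 0.0969; 95% interval -0.087 to 0.32) (limma p = 0.247, Benjamini-Hochberg adjusted p = 0.790), and without mHFD array 5 it was 0.046. The 5 other Tpm1 probes, matched to various transcripts of the gene, differed by -0.0094 to 0.073, with unadjusted limma p from 0.289 to 0.878. Acta1 gave 0.22, 0.39 and 0.65 in mHFD (n = 8) and 0.20, 0.46 and 0.55 in mLFD (n = 8). The groups overlapped, and the difference was 0.0038 (SE 0.0679; 95% interval -0.14 to 0.15), the smallest in size of the 10 genes (limma p = 0.956, Benjamini-Hochberg adjusted p = 0.993). Whether RNA of other actin genes also bound the Acta1 probe was not tested.

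At the Z-disc, where thin filaments of neighbouring sarcomeres are anchored, neither gene passed. Actn3, the alpha-actinin of fast fibres, gave -0.12, 0.13 and 0.56 in mHFD (n = 9) and -0.20, 0.25 and 0.33 in mLFD (n = 9). The groups overlapped, and the difference was 0.014 (SE 0.0879; 95% interval -0.17 to 0.20) (limma p = 0.874, Benjamini-Hochberg adjusted p = 0.978). Myoz1, which binds alpha-actinin and the phosphatase calcineurin, gave -0.14, 0.15 and 0.44 in mHFD (n = 8) and -0.020, 0.26 and 0.53 in mLFD (n = 8). The groups overlapped, with 1 mHFD array below every mLFD array and 1 mLFD array above every mHFD array. The difference was -0.096 (SE 0.0845; 95% interval -0.27 to 0.081) (limma p = 0.269, Benjamini-Hochberg adjusted p = 0.7999). It was lower in mHFD within each of the 4 slides with a value, at -0.11, -0.0047, -0.13 and -0.14 on the log2 scale, and with the flagged spots of slide 2 included it was 0.15 higher there.

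**Figure D3:**
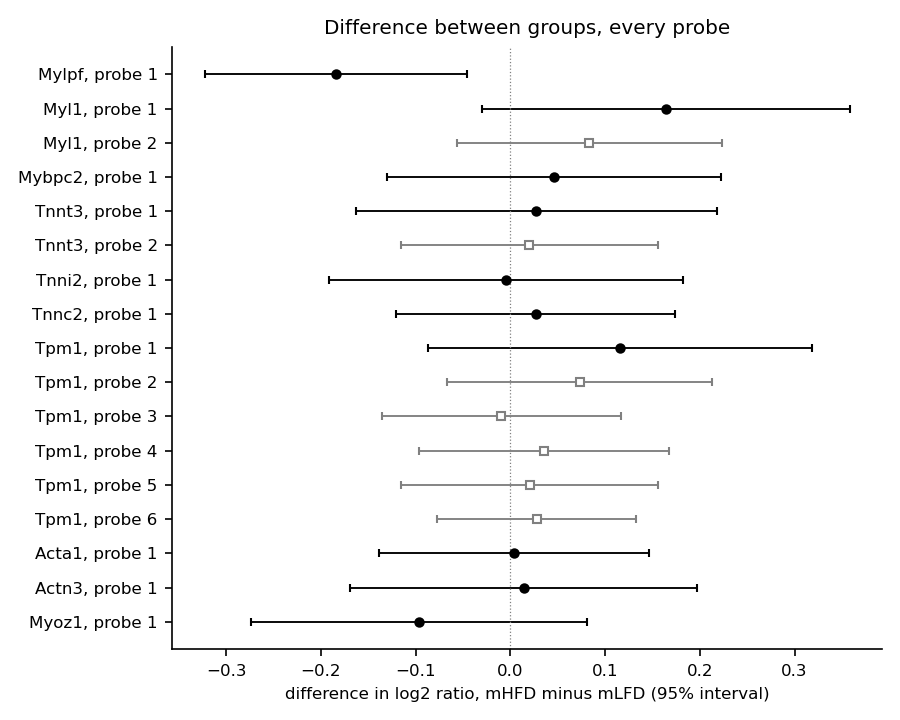
Difference in log2 ratio, mHFD minus mLFD, with its 95% interval (horizontal axis), for every probe (vertical axis). Filled circles are the brightest probe of a gene and open squares its other probes. Every interval but that of Mylpf, -0.32 to -0.045, includes 0.

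The sign of the difference varied between slides. On slide 3 the mHFD arrays were higher in 8 of 10 genes, with a median difference of 0.25, and on slide 5 they were lower in 10 of 10, with a median of -0.11. On slides 1 and 4, 4 and 5 of 10 genes were higher. On slide 2 only 3 genes had values, 1 higher and 2 lower, and with the spots carrying outlier flags kept, all 9 genes other than Mylpf were higher there, by 0.057 to 0.20. Slide 3 held mHFD array 5, in which the mean of the 9 genes other than Mylpf was 0.67, against 0.16 to 0.47 on the other 15 arrays with all values. On slide 2, with flagged spots kept, this mean was 0.60 in mHFD array 3. Without mHFD array 5 the median difference of the 10 genes was -0.018, without mLFD array 6 it was -0.0062, and without slide 3 it was -0.049. Groups were also placed by position, mHFD at positions 1 and 3 and mLFD at 2 and 4 of each slide, and with position as a linear term the median was -0.034.

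Other bright spots were high and low on the same arrays. Over the 16 arrays with all values, the mean of the 9 genes had a Pearson correlation of 0.902 with the median of the 115 other probes read at low gain, and of 0.768 without mHFD array 5, as a description of points that share arrays and scans. Most of these 115 probes and 9 of the 10 genes had mean log2 ratios above 0. The median of the mean log2 ratios was 0.24 for the 10 genes, with 90% above 0, and 0.34 for the 115 probes, with 96.5%. For all tested probes it was -0.015, with 43.4% above 0. This offset of bright probes is not read as more RNA than in the pool, which holds all samples, and its cause was not tested. The software's Cy5 scaling factor ranged from 1.15 to 6.10 over 20 arrays, with the highest on slide 2. Over the 16 arrays with all values, which leave out slide 2, its log2 had a correlation of 0.171 with the mean of the 9 genes. Without mHFD array 5 this was -0.263. The correlation does not cover the arrays of slide 2. The part of scan gain and dye scaling in the shared pattern was not tested.

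**Figure D4:**
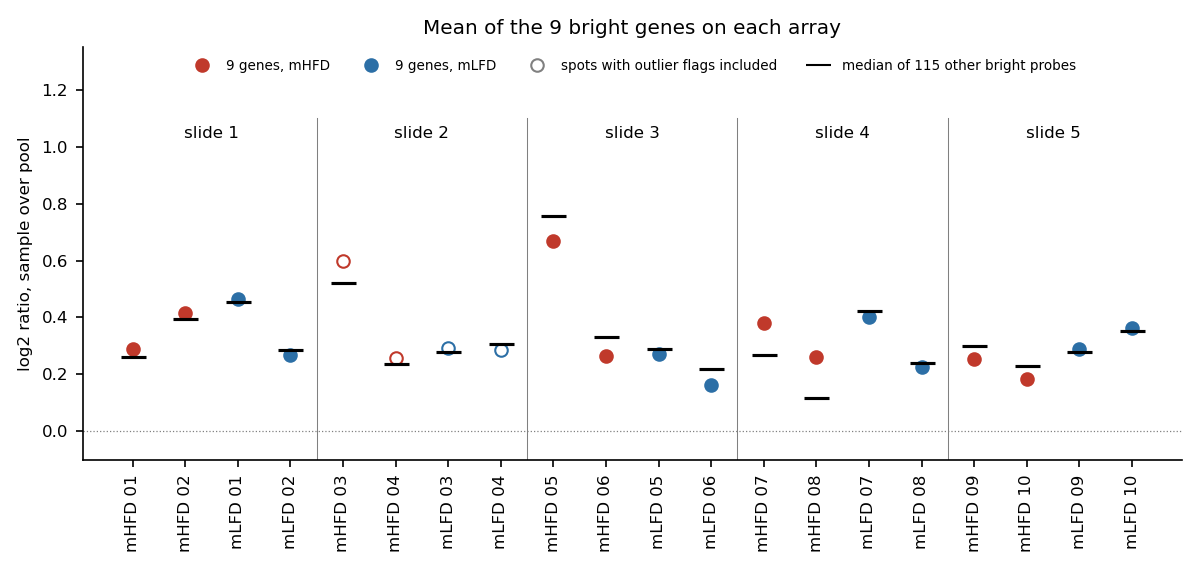
Mean log2 ratio of the 9 genes other than Mylpf on each array (vertical axis, circles, mHFD red and mLFD blue), in order of slide (horizontal axis), with black bars for the median of 115 other bright probes. Open circles on slide 2 include spots with outlier flags. On mHFD array 5 the genes reach 0.67 and the other bright probes 0.76.

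Taken dye by dye, the bright genes varied in the pool as well as in the samples. On the scale of log2 processed signal over each array's 75th percentile, with every spot kept, the SD within groups of the Cy3 signal, which comes from the same pool on all arrays, was 0.196 to 0.368 for the 9 bright genes and 0.103 for Mylpf, against a median of 0.116 for all tested probes. In Cy5 it was 0.157 to 0.308 for the 9 genes and 0.191 for Mylpf, against 0.256. Over 20 arrays the Cy5 and Cy3 signals of a gene correlated at 0.924 for Tnnc2, 0.912 for Acta1 and 0.906 for Tnni2, down to 0.485 for Actn3 and 0.445 for Mylpf, beside a median of 0.514 over all tested probes. Both dyes of a spot share its size, place and scan. Neither dye alone gave a gene of the 10, or any probe, past an adjusted p of 0.05 in limma. At an unadjusted p under 0.05 there were 1386 probes in Cy5 and 1566 in Cy3, the pool. The main fit, on the ratio of the dyes, gave 1371 of 19206 tested probes.

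The correlations among the 10 genes depended on the scale. Their 45 pairwise correlations over the 16 arrays ran from -0.44 to 0.96 with a median of 0.33, and with a median of 0.17 without mHFD array 5. For the 9 genes other than Mylpf the median of 36 pairs was 0.41, and on Cy5 alone it was 0.69. Myl1 and Tpm1, the genes whose promoters are shown above, correlated at 0.958, at 0.984 within mHFD and 0.916 within mLFD (8 arrays each), and at 0.924 without mHFD array 5. Mybpc2 joined them, at 0.740 with Myl1 and 0.821 with Tpm1. These genes are among the 9 whose mean followed other bright probes over arrays. The part of that shared pattern in their correlations was not tested. Tnnt3 and Actn3 formed another pair, at 0.777, and at 0.820 without mHFD array 5. Mylpf ran against several of the rest, with its lowest value, -0.441, against Mybpc2.

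Probes of a single gene agreed to different degrees. Probes 1 and 2 of Tpm1, which share a run of 46 bases, correlated at 0.895 over 16 arrays, and at 0.799 without mHFD array 5. The Tnnt3 pair printed above, which shares 27 bases, correlated at 0.419 and without mHFD array 5 at 0.018. The Myl1 pair, whose longest shared run is 5 bases, correlated at 0.524 and at 0.233. The bright and the dim Tpm1 probes correlated at -0.34 to 0.35 over 16 to 17 arrays.

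The 6 other gene names nearest to the mean pattern of the 10 genes were taken over the 16 arrays with all values, since slide 2 lacks them. Cox7a1, a muscle subunit of cytochrome c oxidase, correlated at 0.837 (0.919 within mHFD, 0.704 within mLFD), and Fth1, ferritin heavy chain, at 0.870 (0.867 and 0.936). Milr1 correlated at 0.852 (0.967 and 0.516) and Gm4924 at 0.844 (0.861 and 0.808). The probes named NAP114342-1 and ENSMUST00000094104 correlated at 0.882 (0.883 and 0.935) and 0.853 (0.853 and 0.856). Without mHFD array 5 these values were 0.656 to 0.746. Of the 6 probes 5 were bright, with mean Cy5 signals from 59969 to 116547, and that of Gm4924 was dim, at 58.4.

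None of the slow and cardiac counterparts of the 10 genes passed. Their point estimates were higher in mHFD for 3 and lower for 7 of 10, with a median of -0.11, and 0 of 10 had an unadjusted limma p under 0.05 or an adjusted p under 0.05. The nearest were Actc1, cardiac actin, at -0.28 (SE 0.133; limma p = 0.0504, adjusted p = 0.690), Myl2, the slow and ventricular regulatory light chain, at -0.35 (SE 0.178; limma p = 0.0581, adjusted p = 0.691), and Tnni1, slow troponin I, at -0.36 (SE 0.201; limma p = 0.0834, adjusted p = 0.709). Tnnt1 and Tnnc1 stood at -0.22 and -0.18, Tpm3 at 0.12, Myoz2 at 0.045, Myl3 at -0.036, Actn2 at -0.018 and Mybpc1 at 0.0039.

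The balance of each gene over its slow or cardiac counterpart, the difference of the log2 ratios of a pair on each array, is given as values with standard errors. It was higher in mHFD by 0.43 (SE 0.286) for Tnni2 over Tnni1, 0.32 (SE 0.239) for Tnnt3 over Tnnt1, 0.32 (SE 0.198) for Myl1 over Myl3, 0.28 (SE 0.137) for Acta1 over Actc1, 0.23 (SE 0.202) for Tnnc2 over Tnnc1 and 0.17 (SE 0.223) for Mylpf over Myl2. It was 0.048 (SE 0.0871) for Mybpc2 over Mybpc1, 0.026 (SE 0.200) for Actn3 over Actn2, -0.033 (SE 0.111) for Tpm1 over Tpm3 and -0.095 (SE 0.156) for Myoz1 over Myoz2. The genes of a pair can stand on different numbers of arrays in their own differences, so these do not add up to the balance. The pairs share arrays and are not independent of each other. Acta1 and Actc1, the skeletal and the cardiac actin, are not a fast and slow pair.

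**Figure D5:**
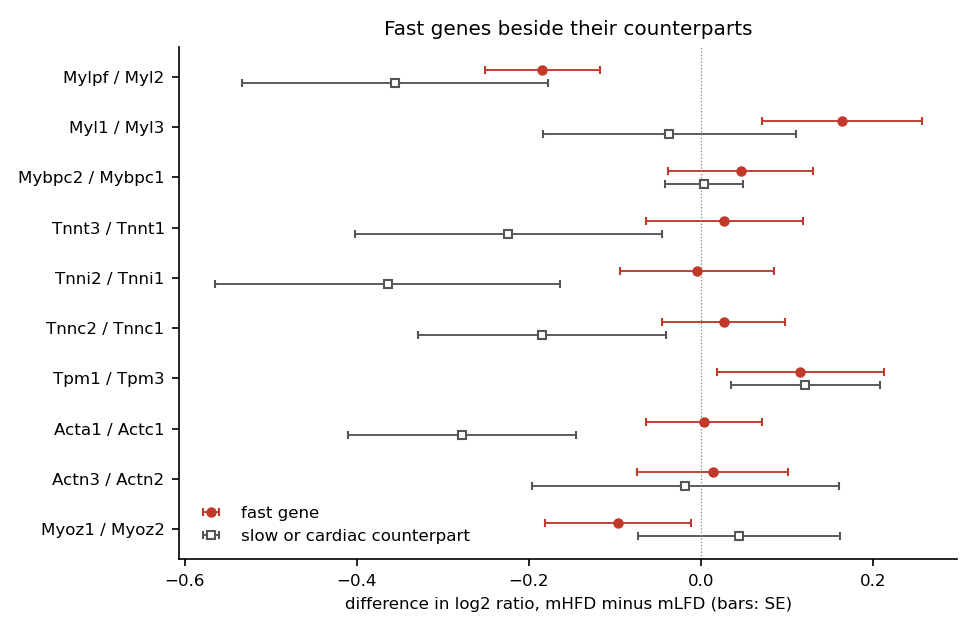
Difference in log2 ratio, mHFD minus mLFD, with its SE (horizontal axis), for each fast gene (red circles) and its slow or cardiac counterpart (open squares), 1 pair to a line. The fast genes lie between -0.18 and 0.16 and the counterparts between -0.36 and 0.12.

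Other genes of the contractile apparatus and of fast fibres give the setting, from lists chosen with earlier results of these data known. Over all tested probes, 4.04% were higher and 3.1% lower in mHFD at an unadjusted limma p under 0.05. Of 6 myosin heavy chains 3 were higher and 3 lower, and Myh4, the chain of the fastest fibres, was higher at an unadjusted p under 0.05, by 0.19 (SE 0.0794; limma p = 0.0269, adjusted p = 0.690). Myh7, the slow chain, stood at -0.43 (SE 0.224; limma p = 0.0696, adjusted p = 0.699), Myh3, an embryonic chain, at -0.14, and Myh1 at -0.060. Of 35 other sarcomere genes, 19 had a higher and 16 a lower point estimate (median 0.012), and 4 were higher at an unadjusted p under 0.05, none after adjustment. These 4 were Myot, a Z-disc protein (0.20, SE 0.0755), Xirp2, an actin-binding repeat protein (0.21, SE 0.0903), Neb, nebulin, which lines the thin filament (0.39, SE 0.175), and Flnc, muscle filamin (0.23, SE 0.108), with limma adjusted p of 0.690 each.

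For the next list the background is 51.6% higher in mHFD over all tested probes. Over the 115 other probes read at low gain it is 63.5%, with a median of 0.034. Of 14 fast-fibre genes outside the sarcomere 12 had a higher and 2 a lower point estimate (median 0.049), and 0 of 14 had an unadjusted p under 0.05 in limma. Those of smallest p were Pfkm, muscle phosphofructokinase (0.17, SE 0.0972), Sox6, a transcription factor that represses slow genes (0.073, SE 0.0461), Ldha, lactate dehydrogenase A (0.084, SE 0.0663), and Mstn, myostatin, which limits muscle growth (-0.089, SE 0.0714), with limma p of 0.0954, 0.129, 0.221 and 0.225 and adjusted p from 0.711 to 0.775.

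Marker lists of cell types were set beside the 10 genes. Their log2 ratios are taken over a pool of these same samples, so they compare arrays and cannot check the tissue. The 5 fast fibre markers had a mean log2 ratio of -0.014 to 0.52 per array in mHFD and 0.14 to 0.39 in mLFD, and the 5 slow fibre markers -0.87 to 0.36 and -0.79 to 0.68. All 5 slow fibre markers had lower point estimates in mHFD, with a median of -0.35, 0 of 5 at an unadjusted p under 0.05. Of these markers Tnnt1, Tnni1, Myl2 and Myh7 were already given above, so only Atp2a2 adds a new value. Of the 4 cardiac markers Tnni3 was well above background on 0 arrays and Nppa on 4, and the 2 tested, Myh6 and Tnnt2, had lower point estimates, at -0.072 and -0.11. All 5 adipocyte markers had lower point estimates in mHFD, with array means of -0.83 to 0.25 against -0.92 to 0.73, 0 of 5 at an unadjusted p under 0.05. The 2 tested neutrophil markers were lower at an unadjusted p under 0.05, not after adjustment, with array means of -2.21 to 0.24 in mHFD and -2.29 to 2.49 in mLFD. Of 5 tendon markers 1 was higher and 4 lower, 2 of these at an unadjusted p under 0.05, and of 4 endothelial markers 2 were higher and 2 lower, 1 at an unadjusted p under 0.05. All 3 smooth muscle markers were higher, 1 at an unadjusted p under 0.05, and the 2 tested erythroid and 2 tested satellite cell markers split evenly. Another erythroid marker, Hbb-b1, was well above background on 20 arrays but was not found by that name among the tested genes. It has no value here. Over all tested probes, 4.04% were higher and 3.1% lower in mHFD at an unadjusted limma p under 0.05. None of the tested markers passed adjustment. The part of these cells in the values of the 10 genes was not tested.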

How the data were processed

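Quadriceps RNA of 20 mice was measured on 2-colour arrays, 10 per group, without dye swap. The deposited scanner files hold spot intensity in both dyes and a log10 ratio, written by Agilent Feature Extraction 10.7.3.1 per the submitters' processing notes. The authors' deposited value table holds log2 values with a median of 7.54 on every array; over 19377 spots its differences between arrays correlated at 0.994 or more with Cy5 corrected by Cy3, while its exact scale, centring and direction of correction are not known.

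Mean intensities were background-corrected (normexp, offset 50) and loess-normalised within arrays, without the 1377 control spots, outlier-flagged spots were left out, and limma 3.58.1 in R 4.3.3 compared the groups over probes well above background on at least 10 arrays, with Benjamini-Hochberg adjustment. Code was tested on simulated data. A gene's value is that of its brightest probe. With arrays, precision is limited by how many there are.

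The members and lists were chosen with earlier results of these data known. All 10 members are named, with the genes of smallest p in each list, and the 6 genes nearest in pattern, taken over 16 arrays and not the planned 20, since slide 2 lacks values. Equal replicate numbers share slides, and the labels do not say that they pair mice, so the numbers were not taken as pairs. Deviations of same-numbered arrays correlated at -0.0097 to 0.35 (median 0.17), with 8 of 10 pairs over 0.1. The median was 0.11 within slides and -0.080 between slides, which does not settle the pairing. The main fit had no slide term. It gave 1371 probes at an unadjusted limma p under 0.05, against 1701 with slide as a fixed block and 1988 with replicate number as a block. The alternatives were other normalisations, filters, blocks, a position term, and each array or slide left out.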

Additional observations from a re-analysis of the deposited data

Results flagged for a closer look

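A single array stood apart from the rest of its group in 3 of 34 combinations of probe and group, where chance alone gives about 1 in 20, or 1.7. For probe 2 of Tnnt3 in mHFD, array 5 was high at a log2 ratio of 0.86 with the next at 0.55, a gap of 0.648 of the range of 8 arrays. For probe 2 of Tpm1 in mHFD, the same array was high at 1.04 with the next at 0.68, a gap of 0.604 of the range of 9 arrays. For Acta1 in mLFD, array 6 was low at 0.20 with the next at 0.41, a gap of 0.602 of the range of 8 arrays.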

How the results depend on the processing

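No member passed an adjusted p of 0.05 in limma under any of 42 settings. The median difference of the 10 genes, 0.020, ran from -0.062 (scaling) to 0.064 (without slide 5). Mylpf was lower in 42 of 42 settings, at -0.23 to -0.099, and had an unadjusted p under 0.05 in 38 of 42. The settings in which it did not were median centring, scaling, Cy5 alone and the authors' table, all changes of normalisation or measure. Most of the 42 settings leave out 1 array or slide, and some others return the main estimate, so they are not separate checks. The smallest adjusted p of Mylpf was 0.361. The count of all probes called, 1, was 0 with the scanner's log ratio, median centring, scaling, offset 0, Cy5 alone, the authors' table, slide as a fixed block, position, or without slide 1, 2, 3 or 4, and 0 to 1 with 1 array left out. With the replicate number as a block, 2 probes were called, no member was, the median was 0.012 and Actn3 turned to -0.020; 3 of 10 mHFD arrays correlated best with their own number. The median member SD was 0.699 with median centring in place of loess. Several differences changed sign. Scaling gave Acta1 -0.10, Mybpc2 -0.0051, Tnnc2 -0.075, Tnnt3 -0.021 and Tpm1 -0.050. The scanner's ratio gave Actn3 -0.039, Myoz1 0.016, Tnnc2 -0.0027, Tnni2 0.021 and Tnnt3 -0.12. Cy5 alone gave Myl1 -0.035, Tnnc2 -0.13, Tnni2 0.14 and Tnnt3 -0.11. The authors' table gave Acta1 -0.046, Actn3 -0.058, Tnnc2 -0.026 and Tnnt3 -0.019. Position gave Acta1 -0.0030, Actn3 -0.064, Mybpc2 -0.017, Tnnc2 -0.036 and Tnnt3 -0.061. Offset 0 gave Acta1 -0.026 and Actn3 -0.021, median signals Acta1 -0.013, and median centring Actn3 -0.028. Without slide 1, Acta1 was -0.014, Actn3 -0.00084 and Tnni2 0.052; without slide 2, Actn3 -0.020; without slide 3, Acta1 -0.036, Actn3 -0.061, Mybpc2 -0.019, Tnnc2 -0.011 and Tnnt3 -0.076; without slide 4, Tnnc2 -0.011 and Tnni2 0.019; without slide 5, Tnni2 0.0055. Keeping outlier-flagged spots, an alternative chosen after seeing the data, gave Tnni2 0.021. With 1 array left out, Acta1 ran from -0.031 to 0.037, Actn3 from -0.038 to 0.048, Mybpc2 from -0.0060 to 0.092, Tnnc2 from -0.016 to 0.058, Tnni2 from -0.062 to 0.039 and Tnnt3 from -0.029 to 0.075. The cause of these changes was not tested. All member probes but 1 were well above background on 20 of 20 arrays, the sixth of Tpm1 on 19.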
